A study of Danio rerio with 14 samples.

Results

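The genes described here copy chromosomal DNA or repair it by homologous recombination. They were taken from a list of 56 symbols set out by complex, and each symbol was matched to the Ensembl gene identifiers of both count tables through the reference gene names. All 56 symbols matched, and because *rrm2* names a gene on chromosome 19 and another on chromosome 20, 57 of the 32520 genes in each table were followed. The libraries were made from pools of uninjured hearts of adult zebrafish. All fish carried *actb2:loxp-BFP-stop-loxp-il11a* and were bathed in 5 µM tamoxifen for 24 h, and only the *il11a*OE fish also carried *cmlc2:creER*, which drives CreER in cardiomyocytes. Recombination there removes the stop cassette and places *il11a*, a zebrafish interleukin-11 gene, under the *actb2* promoter. Controls were littermates without CreER. Hearts were taken 7 days (7 dpt) or 7 months (7 mpt) after treatment, with 3 libraries per group at 7 dpt and 4 per group at 7 mpt. The transgene came from one founder line, the labels name no individual fish behind a pool, and the study's methods give fewer pools per group than the 7 mpt labels list, so that the p-values measure the spread between these libraries.

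DNA replication starts when the origin recognition complex, CDC6 and CDT1 load the ring-shaped MCM helicase onto DNA before S phase. CDC45 and GINS then join the ring and turn it into the moving helicase, polymerases alpha, epsilon and delta copy the strands, the sliding clamp PCNA holds polymerases on DNA, and FEN1 and LIG1 trim and join the pieces of the lagging strand. Enzymes of nucleotide synthesis supply the building blocks, and recombination factors repair breaks and stalled forks. Most of these genes are transcribed in a cell-cycle-dependent way, and adult zebrafish cardiomyocytes, which divide little in an uninjured heart, are known to re-enter the cell cycle during regeneration.

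At 7 dpt, transcripts of most of these genes were higher in *il11a*OE hearts. Of the 57 genes, 49 rose, *orc6* alone fell, and *orc1*, *orc2*, *cdt1*, *mcm5*, *brca2*, *blm* and the *rrm2* gene on chromosome 20 did not pass the test. A gene is called changed at an adjusted p under 0.05 from edgeR's quasi-likelihood test, adjusted over all 19647 genes tested by the Benjamini-Hochberg method. Among all genes tested, 37.2% passed, 20.2% higher and 17.1% lower. The log2 fold change, *il11a*OE over control, had a median of 1.67 over the 57 genes (quartiles 0.68 and 2.79), against 0.02 over all genes tested. The rise was over 4-fold in 23 of the 57 genes, of which the *rrm2* gene on chromosome 20 was not called. Of all genes tested, 4.22% were called and rose by over 4-fold. Levels are given in CPM, the counts on a gene per 1000000 counts of its library, with library sizes adjusted for composition. In 52 of the 57 genes every *il11a*OE library lay above every control library, and in *orc6* every one lay below, where 28.2% and 24.3% of all genes separated in these directions.

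At 7 mpt, the difference between the groups was much smaller. *mcm3*, *cdc45*, *tk1* and *exo1* rose, and 53 of the 57 genes did not pass the test, against 26.4% of all 18689 genes tested that passed, 14.2% higher and 12.2% lower. The median log2 fold change was 0.33 over the 57 genes and 0.03 over all genes, and 42 of the 57 values were above 0. edgeR called none of the 57 genes lower, with 2 of them lower at an unadjusted p under 0.05 (*orc6* and *rpa1*) and 14 higher. DESeq2 called 9 higher and 1 lower, and limma-voom 2 higher and 1 lower. The *il11a*OE libraries lay above all controls in 9 genes and below them in 2, where 17.0% and 13.8% of all genes separated.

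The change of effect between the time points was tested directly, as the log2 fold change at 7 mpt minus that at 7 dpt in one fit of all 14 libraries. It was below 0 in 56 of the 57 genes (median -1.35), and it passed the test in 29, all with a smaller effect at 7 mpt. Among all 21317 genes tested in this contrast, 4.41% passed, 2.27% below 0 and 2.14% above 0. None of the 57 genes passed above 0 by edgeR, none did so at an unadjusted p under 0.05, and DESeq2 and limma-voom called none above 0. The 29 genes became 19 without *il11a*OE library 1 of 7 dpt, and 19 without *il11a*OE library 2 of 7 dpt. The calls of *orc3*, *orc4*, *gins4*, *pola1*, *rfc5* and *fanci* were fragile, each kept in only 2 to 4 of the 14 runs that left a library out. Those of *pcna*, *tyms* and *tk1*, among others, were kept in all 14. Each time point is its own set of libraries, and the median SD of log2 CPM between replicates was 0.15 at 7 dpt and 0.41 at 7 mpt. The fit gave each gene a common spread for both times. A change over time cannot be told apart from other differences between the sets. The gene by gene values for both time points are drawn by functional group in the plot of log2 fold changes.

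**Figure D1:**
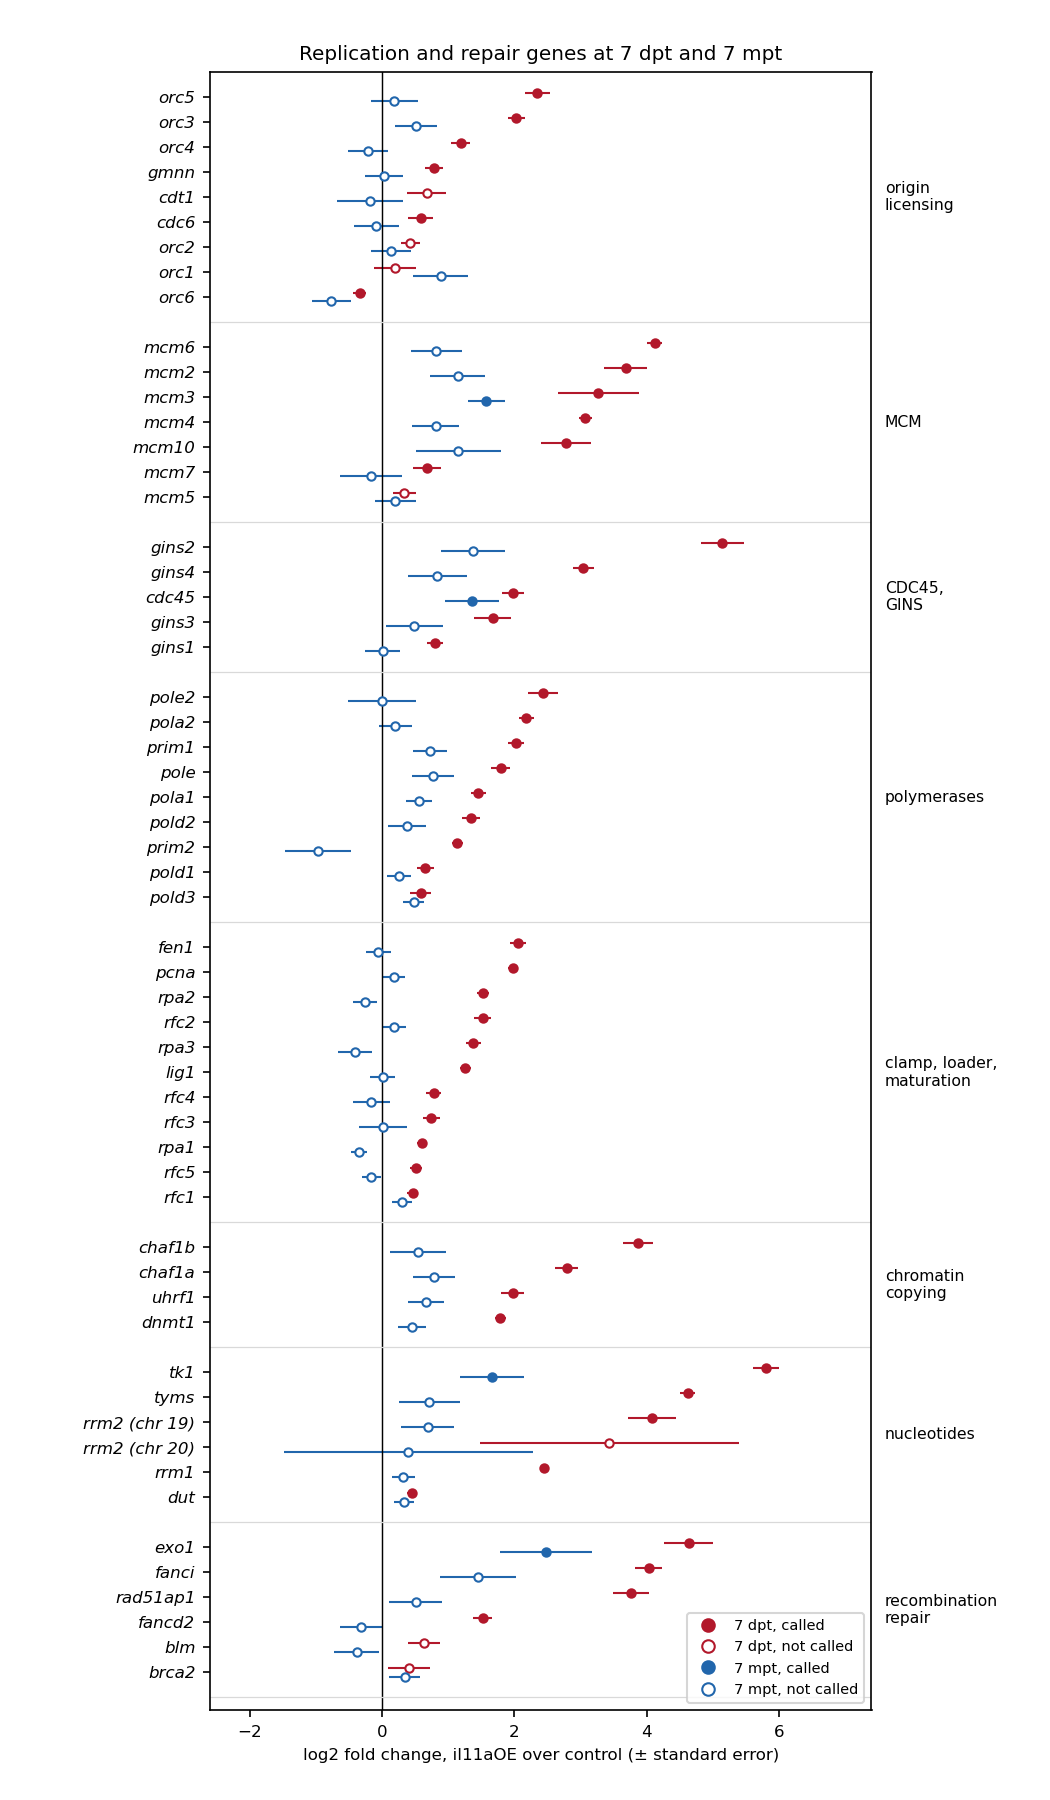
Log2 fold change (*il11a*OE over control) of each of the 57 genes at 7 dpt (red) and 7 mpt (blue), with bars of 1 standard error, sorted by the 7 dpt value within each group; filled points passed edgeR's test at an adjusted p under 0.05. At 7 dpt 49 genes are filled on the right and *orc6* on the left, and at 7 mpt *mcm3*, *cdc45*, *tk1* and *exo1* are filled.

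The induced gene itself set the groups apart in every library: *il11a* had 2400 to 3220 counts in controls and 21621 to 34826 in *il11a*OE at 7 dpt, and 2760 to 8262 against 28274 to 51246 at 7 mpt. Libraries held 61691132 to 80703699 counts on genes at 7 dpt and 73275884 to 130058630 at 7 mpt. Read pairs were counted at 7 dpt and each mate at 7 mpt, so these totals and the *il11a* counts cannot be compared across times. The mitochondrial share of counts was lower in *il11a*OE at 7 dpt (15.9% ± 0.81 against 12.5% ± 1.00, SD, n = 3). It was lower at 7 mpt too (29.0% ± 1.74 against 21.2% ± 1.82, SD, n = 4). The heart origin of the RNA was plain from the cardiomyocyte markers, of which 6 of 10 symbols matched and none was at 0 in any library. Markers of several cell types moved with the groups, where 20.2% of all genes tested were called higher and 17.1% lower. At 7 dpt all 9 macrophage markers rose, from a summed 228.7 to 290.3 CPM in controls to 564.2 to 705.3 CPM in *il11a*OE. Of the 10 lymphoid markers 9 were tested and 8 rose. The sum of the 10 went from 2.95 to 7.45 CPM up to 31.8 to 43.8 CPM, with *cd8a*, *pax5* and *rag1* at 0 in at least 1 control library. Of the 6 cardiomyocyte markers 5 fell, from a sum of 47952 to 54940 CPM to one of 25952 to 32142 CPM. Of 4 epicardial markers 2 rose and *tcf21* fell, and the sum of the 4 went from 73.6 to 95.4 CPM in controls up to 216.3 to 377.1 CPM in *il11a*OE. Of 4 neutrophil markers 3 were tested and 2 rose (sums of 5.16 to 7.89 CPM in controls against 31.7 to 34.97 CPM in *il11a*OE). Erythroid markers fell in 3 of 4 genes (sums of 1767 to 4041 CPM in controls against 875.2 to 1406 CPM in *il11a*OE), and erythroid progenitor markers in 4 of 5. Of 5 smooth muscle and mural markers 3 rose, with overlapping sums. Of 5 endothelial and endocardial markers 1 rose and 2 fell (sums of 1290 to 1420 CPM in controls against 1268 to 1309 CPM in *il11a*OE). Of 6 fibroblast markers 1 rose and 1 fell (430.3 to 596.2 CPM against 594.1 to 717.8 CPM). Of 6 liver genes 2 were tested and 1 fell. Of 10 germ line markers 3 were tested and 2 rose (sums of 2.40 to 2.90 CPM in controls against 4.77 to 6.10 CPM in *il11a*OE). The part of these cells in the changes of the replication genes was not tested. In bulk RNA of this kind, more cells of a type and more RNA per cell cannot be told apart.

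The 9 genes that mark and license origins were the only group with calls in both directions at 7 dpt: 5 rose, *orc6* fell, and *orc1*, *orc2* and *cdt1* did not pass (median log2 fold change 0.68). *orc3*, *orc4* and *orc5*, subunits of the origin recognition complex, rose most. *orc3* was at 1.56, 1.42 and 1.55 CPM in the control libraries and 5.6, 6.38 and 6.57 CPM in *il11a*OE. These groups were far apart, a 4.09-fold rise (log2 fold change 2.03 ± 0.13, standard error, adjusted p = 0.000138). *orc5*, an ATP-binding subunit of the complex, went from 0.77, 0.555 and 0.751 CPM to 3.41, 3.43 and 3.73 CPM, and *orc4*, another ATP-binding subunit, from 2.84, 3.14 and 3.42 CPM to 6.12, 7.71 and 7.62 CPM. In both genes the lowest *il11a*OE library stood well above the highest control (log2 fold change 2.34 ± 0.19 for *orc5*, adjusted p = 0.000326, and 1.19 ± 0.14 for *orc4*, adjusted p = 0.00134). *gmnn* (geminin), which blocks CDT1 after origins have fired, rose by 0.79 ± 0.14 on the log2 scale (adjusted p = 0.00526), and *cdc6*, the loading ATPase, by 0.59 ± 0.19 (adjusted p = 0.0498). The call of *cdc6* was lost without any of the 6 libraries in turn (adjusted p from 0.051 to 0.128).

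*orc6* (ENSDARG00000075682, GRCz11 chromosome 7 from 41812190 to 41826318), the small subunit that is not part of the AAA+ core, went the other way. It had 14.2, 16.5 and 13.9 CPM in controls and 11.8, 12.4 and 11 CPM in *il11a*OE at 7 dpt, with all *il11a*OE libraries below all controls (log2 fold change -0.34 ± 0.10, adjusted p = 0.0393). At 7 mpt *orc6* had 10.9, 5.65, 5.14 and 5.66 CPM in controls and 3.11, 3.39, 4.52 and 5.09 CPM in *il11a*OE. Again no library overlapped, as in 13.8% of all genes in this direction. The first control library lay apart from the other controls, and the gene did not pass (log2 fold change -0.76 ± 0.29, adjusted p = 0.0821). The 7 dpt call was lost without control library 1 or 2 or without any of the 3 *il11a*OE libraries (adjusted p up to 0.143). Of its exon bases, 11.6% overlap genes on the opposite strand (*MYLK3* and *VPS35*), and counting did not use strand.

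Among the licensing genes without a call at 7 dpt, *orc1*, the largest subunit, of whose exon bases 12.9% overlap *PRPF38A* and *mpl* on the opposite strand, had a log2 fold change of 0.20 ± 0.31 (adjusted p = 0.661), *orc2* one of 0.43 ± 0.14 (adjusted p = 0.0567) and *cdt1*, the MCM loading factor, one of 0.68 ± 0.30 (adjusted p = 0.116). At 7 mpt none of the 9 genes passed, the median log2 fold change was 0.03, and *orc1* was the only one of the 57 genes whose effect was larger at 7 mpt than at 7 dpt (difference 0.68 ± 0.58, adjusted p = 0.57). At 7 mpt *orc1* had a log2 fold change of 0.89 ± 0.42 (adjusted p = 0.153). It was called in 2 of 10 alternatives, the replicate block and the letter of the labels as covariate, and without control library 2 (adjusted p = 0.0241). At 7 mpt *orc3* had 1.72, 2.61, 2.29 and 2.89 CPM in controls and 1.82, 3.55, 4.43 and 3.74 CPM in *il11a*OE. *orc4* had 1.81, 3.61, 2.56 and 2.41 CPM and 1.5, 2.91, 2.22 and 2.36 CPM, and *orc5* 1.07, 1.62, 1.19 and 2.41 CPM and 1.13, 1.87, 2.02 and 2.14 CPM. The groups overlapped in all 3 genes. Their effects were smaller than at 7 dpt, with a difference (7 mpt minus 7 dpt) of -1.54 ± 0.40 for *orc3* (adjusted p = 0.0455), -1.41 ± 0.37 for *orc4* (adjusted p = 0.0459) and -2.18 ± 0.47 for *orc5* (adjusted p = 0.0203) on the log2 scale. Of the 14 runs that left a library out, 3 kept the call of this difference for *orc3*, 2 for *orc4* and 10 for *orc5*.

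Of the 7 MCM genes, 6 rose at 7 dpt, 5 of them by over 4-fold, and the group median of 3.08 was below that of the nucleotide enzymes alone. MCM2 to MCM7 form the hetero-hexameric ring of the replicative helicase. *mcm6* (ENSDARG00000057683) led with 0.707, 0.815 and 0.717 CPM in controls and 12.6, 13.2 and 13.3 CPM in *il11a*OE, a 17.4-fold rise (log2 fold change 4.12 ± 0.12, adjusted p = 2.42e-05). *mcm4* went from 2.03, 2.36 and 2.22 CPM to 18.4, 18.8 and 18.5 CPM, and replicates of each group lay within a narrow band (log2 fold change 3.08 ± 0.10, adjusted p = 2.67e-05). *mcm2* was at 0.456, 0.763 and 0.3003 CPM in controls, with 18 to 44 counts per library, and at 6.2, 6.73 and 6.58 CPM in *il11a*OE. No control library came near the *il11a*OE libraries (log2 fold change 3.68 ± 0.33, adjusted p = 0.00046). *mcm3* varied more among its controls, at 0.251, 1.4 and 0.417 CPM, than among its *il11a*OE libraries, at 7.07, 6.41 and 6.46 CPM, and the second control library was the high one. The groups were still apart (log2 fold change 3.27 ± 0.61, adjusted p = 0.00794). *mcm10*, which is no ring subunit but helps activate the helicase, rose from 4 to 9 counts per control library to 43 to 82 counts in *il11a*OE (log2 fold change 2.78 ± 0.38, adjusted p = 0.00215).

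The remaining ring subunits were *mcm7* and *mcm5*. *mcm7* was called higher at a log2 fold change of 0.68 ± 0.21 (adjusted p = 0.0457), a call that was kept only when control library 1 was left out (adjusted p from 0.0172 to 0.11 over the 6 libraries left out in turn). *mcm5* (ENSDARG00000019507) had 7.8, 4.98 and 6.22 CPM in controls and 8.04, 7.54 and 8.44 CPM in *il11a*OE. The highest control lay inside the *il11a*OE range and the gene did not pass (log2 fold change 0.34 ± 0.17, adjusted p = 0.167, and 0.0425 without control library 1). A second gene with the symbol *mcm6*, on chromosome 2, had 0 to 22 counts in any library and was not followed.

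At 7 mpt *mcm3* was the MCM gene that passed, with 1.61, 2.06, 2.2 and 2.58 CPM in controls and 3.87, 8.57, 6.56 and 6.2 CPM in *il11a*OE. No *il11a*OE library fell to the level of a control, as in 17.0% of all genes. *mcm3* was called whichever of the 8 libraries was left out (log2 fold change 1.58 ± 0.28, adjusted p = 0.00268). *mcm2* had 2.15, 7.93, 4.01 and 6.08 CPM in controls and 5.49, 12.5, 14.4 and 12.2 CPM in *il11a*OE. *mcm4* had 3.31, 9.71, 5.71 and 8.24 CPM and 6.46, 13.5, 14.8 and 12.6 CPM, and *mcm6* 2.62, 8.74, 5.82 and 8.07 CPM and 5.83, 14.1, 13.6 and 11.1 CPM. In these 3 genes the first library of each group was the lowest of its group, and the low *il11a*OE library fell among the controls while the other *il11a*OE libraries stood above them. Their adjusted p was 0.0703, 0.125 and 0.157. The effect was smaller than at 7 dpt, with a difference of -2.55 ± 0.61 for *mcm2* (adjusted p = 0.0345), -2.28 ± 0.46 for *mcm4* (adjusted p = 0.0161) and -3.32 ± 0.52 for *mcm6* (adjusted p = 0.00431), on the log2 scale. For *mcm3* the difference was -1.70 ± 0.62 and did not pass (adjusted p = 0.142).

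All 5 genes whose products complete the active helicase rose at 7 dpt (median log2 fold change 1.98). *gins2* (ENSDARG00000002304), a subunit of the GINS tetramer, was nearly silent in controls, with 3 to 8 counts per library or 0.126, 0.121 and 0.0501 CPM, and reached 3.84, 3.39 and 3.49 CPM in *il11a*OE. The rise was 35.4-fold (log2 fold change 5.15 ± 0.33, adjusted p = 0.000135). *gins4*, another of its subunits, went from 0.629, 0.52 and 0.634 CPM to 4.85, 5.06 and 4.86 CPM, with tight replicates in both groups (log2 fold change 3.05 ± 0.15, adjusted p = 7.08e-05). *cdc45*, the helicase cofactor, went from 1.02, 0.884 and 1.03 CPM to 3.96, 4.19 and 3.46 CPM, also without overlap (log2 fold change 1.98 ± 0.16, adjusted p = 0.000336). *gins3* and *gins1* rose by 1.67 ± 0.28 and 0.80 ± 0.12 on the log2 scale.

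At 7 mpt *cdc45* passed, with 0.649, 0.745, 0.802 and 0.425 CPM in controls and 0.996, 2.76, 1.5 and 1.48 CPM in *il11a*OE. The second *il11a*OE library was far above the rest, the groups did not overlap, and the call held in 1 of the 8 runs that left a library out, the one without *il11a*OE library 1 (log2 fold change 1.36 ± 0.41, adjusted p = 0.0359, and 0.0301 to 0.118 with a library left out). *gins2* had 0.201, 0.438, 0.416 and 0.453 CPM in controls and 0.598, 1.3, 1.32 and 0.713 CPM in *il11a*OE. *gins4* had 0.313, 1.29, 0.892 and 1.08 CPM and 1.3, 1.52, 1.53 and 2.04 CPM. In both GINS genes all *il11a*OE libraries again lay above all controls, though neither passed (adjusted p = 0.0605 and 0.203). Of all genes, 17.0% separated in this direction at 7 mpt. Between the time points the effect of *gins2* differed by -3.79 ± 0.63 (adjusted p = 0.0057) and that of *gins4* by -2.23 ± 0.54 (adjusted p = 0.0352), while that of *cdc45* differed by -0.64 ± 0.48 and did not pass (adjusted p = 0.5003).

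All 9 polymerase and primase genes rose at 7 dpt, with a median log2 fold change of 1.46 and values from 0.58 to 2.43. The complex that starts each new strand is polymerase alpha with primase, and the transcripts of all 4 of its subunits were higher. *pola2*, its accessory subunit, was at 1.81, 1.89 and 1.74 CPM in controls and 7.57, 8.52 and 8.54 CPM in *il11a*OE. *prim1*, the catalytic primase, was at 1.85, 1.8 and 1.57 CPM and 6.89, 7.36 and 7.13 CPM, and *pola1*, the catalytic polymerase subunit, at 3.38, 3.45 and 4.12 CPM and 10.1, 10.04 and 9.95 CPM. In each of the 3 genes the libraries of a group clustered tightly and the groups were far apart (log2 fold change 2.18 ± 0.12, adjusted p = 8.29e-05 for *pola2*, 2.03 ± 0.12, adjusted p = 0.000113 for *prim1* and 1.46 ± 0.11, adjusted p = 0.000299 for *pola1*). *prim2*, the primase partner subunit, rose by 1.14 ± 0.08 on the log2 scale from a control level of 4.37 CPM per kb of exon, against 0.68 CPM per kb for *pola1*. The leading-strand polymerase epsilon genes rose more (*pole2* 2.43 ± 0.22, *pole* 1.79 ± 0.14) than those of polymerase delta, which extends the lagging strand (*pold2* 1.35 ± 0.14, *pold1* 0.65 ± 0.13, *pold3* 0.58 ± 0.16); no test compared genes with each other. Of the exon bases of *pold2* 9.29% overlap *SF3A1* on the same strand. *pold3* passed in 2 of the 6 runs that left a library out, those without control library 3 or *il11a*OE library 2.

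None of the 9 passed at 7 mpt, where their median was 0.38. *pola1* had 3.33, 3.97, 4.49 and 4.05 CPM in controls and 4.85, 6.94, 5.32 and 6.17 CPM in *il11a*OE, and *prim1* 1.57, 2.28, 1.84 and 1.84 CPM and 2.42, 3.85, 3.15 and 3.02 CPM. Of the exon bases of *prim1*, 14.2% overlap *TFIP11* on the opposite strand. Both genes kept all *il11a*OE libraries above all controls (adjusted p = 0.0627 and 0.0607), and *pold3* did so too (log2 fold change 0.48 ± 0.16, adjusted p = 0.0502). Such a separation was seen in 17.0% of all genes. *pola2* had 3.22, 4.12, 2.41 and 3.28 CPM and 3.21, 4.68, 4.02 and 3.07 CPM, and its groups overlapped. The effect was smaller than at 7 dpt in these 3 genes, with a difference of -1.99 ± 0.30 for *pola2* (adjusted p = 0.00338), -1.32 ± 0.29 for *prim1* (adjusted p = 0.0214) and -0.92 ± 0.23 for *pola1* (adjusted p = 0.0387). *prim2* had 1.86, 2.96, 7.96 and 10.02 CPM in controls and 1.89, 3.35, 3.57 and 2.8 CPM in *il11a*OE. Its controls were split, the first 2 as low as the *il11a*OE libraries and the last 2 well above them, and it did not pass (log2 fold change -0.97 ± 0.50, adjusted p = 0.191).

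All 11 genes of the clamp, its loader and strand maturation rose at 7 dpt (median log2 fold change 1.26). *pcna* (ENSDARG00000054155, GRCz11 chromosome 10 from 40821804 to 40826657) encodes the sliding clamp and is widely used as a marker of proliferating cells. It had 24.5, 23.8 and 22.9 CPM in controls and 91.3, 91.5 and 96.7 CPM in *il11a*OE, a 3.93-fold rise with tight replicates (log2 fold change 1.97 ± 0.07, adjusted p = 3.16e-05). *fen1*, the flap endonuclease of the lagging strand, went from 4.81, 3.87 and 5.01 CPM to 18.5, 19.9 and 18.5 CPM, and *lig1*, the ligase that seals the pieces, from 5.89, 6.09 and 6.52 CPM to 14.7, 14.9 and 14.8 CPM. Neither gene overlapped between groups (log2 fold change 2.05 ± 0.12, adjusted p = 0.000109, and 1.26 ± 0.08, adjusted p = 0.000164).

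Replication protein A, which coats single-stranded DNA, is made of 3 subunits. *rpa1*, the large one, was at 45.9, 39.9 and 42.6 CPM in controls and 63, 65.1 and 66.4 CPM in *il11a*OE at 7 dpt. *rpa2* was at 6.87, 7.02 and 7.67 CPM and 21.1, 19.6 and 21.5 CPM, and *rpa3* at 3.66, 3.14 and 3.27 CPM and 9.24, 8.04 and 8.98 CPM. All 3 rose without overlap, *rpa1* least (log2 fold change 0.60 ± 0.08, adjusted p = 0.00182) and *rpa2* and *rpa3* by 1.53 ± 0.09 (adjusted p = 0.000102) and 1.38 ± 0.12 (adjusted p = 0.000384). At 7 mpt *rpa1* had 47.5, 51.6, 56.4 and 62.2 CPM in controls and 41.4, 39.5, 43.1 and 47.2 CPM in *il11a*OE. *rpa2* had 8.97, 12.3, 8.68 and 10.2 CPM and 6.35, 9.37, 9.39 and 8.63 CPM, and *rpa3* 2.77, 3.79, 2.91 and 2.24 CPM and 1.74, 2.37, 2.38 and 2.36 CPM. The 3 values were now below 0, and none passed. The *il11a*OE libraries of *rpa1* were all below the controls, as in 13.8% of all genes (log2 fold change -0.35 ± 0.12, adjusted p = 0.065, and 0.043 without control library 1). The log2 fold change was -0.25 ± 0.18 for *rpa2* (adjusted p = 0.369) and -0.41 ± 0.26 for *rpa3* (adjusted p = 0.292). The effect differed between the time points in all 3, by -0.96 ± 0.16 (adjusted p = 0.00507), -1.79 ± 0.23 (adjusted p = 0.00124) and -1.80 ± 0.28 (adjusted p = 0.00431) in that order.

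Among the 5 genes of replication factor C, the loader that opens the clamp around DNA, *rfc2* rose most at 7 dpt, from 3.38, 3.92 and 4.49 CPM to 10.9, 11.7 and 11.1 CPM (log2 fold change 1.52 ± 0.13, adjusted p = 0.000383). *rfc5* went from 10.5, 11.8 and 11.2 CPM to 15.2, 15.4 and 17 CPM, a small rise in which the groups were still apart (log2 fold change 0.51 ± 0.09, adjusted p = 0.00566). *rfc4*, *rfc3* and *rfc1* rose by 0.78, 0.75 and 0.46 on the log2 scale, and *rfc3* is uncertain because 67.5% of its exon bases overlap *KL* on the opposite strand. Overlaps reach 10.1% for *rfc5* (*WSB2*, opposite strand) and 13.2% for *rfc1*, where *RPL9* lies on the same strand. At 7 mpt none of the 11 genes passed, and their median log2 fold change was -0.05. *pcna* had 26.7, 32.8, 25.3 and 32.1 CPM in controls and 24.5, 38.9, 36 and 32.9 CPM in *il11a*OE. *fen1* had 6.47, 11, 8.56 and 10.05 CPM and 7.51, 8.7, 9.97 and 8.53 CPM, and *lig1* 9.71, 12.8, 7.99 and 11.6 CPM and 8.6, 12.8, 9.9 and 11.1 CPM. The groups overlapped in all 3 genes, and the first *il11a*OE library was the lowest of its group in each. *rfc2* had 4.21, 5.5, 4.93 and 5.43 CPM and 4.65, 5.57, 6.58 and 5.999 CPM, and *rfc5* 9.65, 11.6, 9.72 and 9.45 CPM and 8.54, 8.35, 9.27 and 10.01 CPM, with overlapping groups. Of the 11 genes, 8 passed the test of a smaller effect at 7 mpt, among them *pcna* (-1.81 ± 0.21, adjusted p = 0.000688), *fen1* (-2.12 ± 0.25, adjusted p = 0.00076), *lig1* (-1.27 ± 0.23, adjusted p = 0.00957), *rfc2* (-1.35 ± 0.24, adjusted p = 0.0073) and *rfc5* (-0.68 ± 0.17, adjusted p = 0.0379).

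All 4 genes that restore nucleosomes and DNA methylation behind the fork rose at 7 dpt (median log2 fold change 2.38). *chaf1b* and *chaf1a* encode subunits of chromatin assembly factor 1, which places histones on new DNA. *chaf1b* went from 0.487, 0.728 and 0.884 CPM to 9.63, 10.8 and 10.3 CPM and *chaf1a* from 2.95, 3.05 and 2.05 CPM to 18, 20.7 and 17 CPM. For both, every *il11a*OE library was several times higher than any control (log2 fold change 3.87 ± 0.23, adjusted p = 0.000108, and 2.79 ± 0.18, adjusted p = 0.00014). *dnmt1*, the maintenance DNA methyltransferase, went from 8.68, 8.03 and 7.51 CPM to 27, 28 and 28.6 CPM (log2 fold change 1.79 ± 0.09, adjusted p = 6.28e-05), and *uhrf1*, which recruits it to newly copied DNA, rose by 1.97 ± 0.17 on the log2 scale (adjusted p = 0.000448). At 7 mpt *chaf1a* had 2.53, 5.46, 6.03 and 7.3 CPM in controls and 6.26, 10.4, 11.7 and 8.46 CPM in *il11a*OE. *chaf1b* had 0.806, 3.35, 1.72 and 2.35 CPM and 2.17, 4.42, 2.83 and 2.56 CPM, and *dnmt1* 7.23, 9.64, 7.99 and 11.1 CPM and 8.89, 14.1, 15 and 11.3 CPM. The first control library was the lowest control in each of these genes, and the groups overlapped. No gene of the 4 passed (median log2 fold change 0.60). All *il11a*OE libraries of *uhrf1* lay above all controls, as in 17.0% of all genes (log2 fold change 0.67 ± 0.27, adjusted p = 0.106). The effect was smaller than at 7 dpt, with a difference of -3.35 ± 0.57 for *chaf1b* (adjusted p = 0.00638), -2.01 ± 0.44 for *chaf1a* (adjusted p = 0.0217) and -1.35 ± 0.27 for *dnmt1* (adjusted p = 0.0137).

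The enzymes that make deoxynucleotides gave the highest group median at 7 dpt, 3.76, and 5 of the 6 genes rose. *tk1* (ENSDARG00000102245, GRCz11 chromosome 11 from 45153104 to 45158056), the thymidine kinase of the salvage route, changed more than any other of the 57 genes. It had 9 to 16 counts per control library, 0.251, 0.156 and 0.25 CPM, and 12.9, 12 and 12.5 CPM in *il11a*OE, a 56.2-fold rise (log2 fold change 5.81 ± 0.20, adjusted p = 2.91e-05). *tyms*, the thymidylate synthase of the de novo route, went from 0.896, 0.763 and 0.767 CPM to 19.1, 20.6 and 20.2 CPM (log2 fold change 4.62 ± 0.11, adjusted p = 2.42e-05). Transcripts of both routes to thymidine nucleotides were thus higher together, with replicates close in each group. *rrm1*, the large subunit of ribonucleotide reductase, went from 9.41, 9.29 and 9.41 CPM to 51.5, 50.4 and 52.3 CPM, with the smallest standard error of the group (log2 fold change 2.46 ± 0.06, adjusted p = 2.42e-05). *dut*, the dUTPase, had 27.2 ± 2.1 CPM (SD, n = 3) in controls and rose by 0.45 ± 0.08 on the log2 scale (adjusted p = 0.00464).

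The small reductase subunit, *rrm2*, was split between both of its genes in a way that differed from library to library. The gene on chromosome 19 (ENSDARG00000078069) had 1.85, 3.22 and 2.42 CPM in controls and 52.4, 25.1 and 49 CPM in *il11a*OE at 7 dpt, and the gene on chromosome 20 (ENSDARG00000020711) had 1.15, 0.0867 and 0.734 CPM and 0.343, 20.8 and 0.386 CPM. The second *il11a*OE library divided its counts nearly evenly between the genes, and the other *il11a*OE libraries had almost none on chromosome 20. The chromosome 19 gene rose (log2 fold change 4.08 ± 0.36, adjusted p = 0.000608) and the chromosome 20 gene, with its uneven libraries, did not pass (log2 fold change 3.44 ± 1.96, adjusted p = 0.229). Summed, the counts of both genes were even within groups, at 3.002, 3.31 and 3.15 CPM in controls and 52.7, 45.9 and 49.4 CPM in *il11a*OE, and the standard error of the log2 fold change fell from 0.36 to 0.09 (log2 fold change 3.97, adjusted p = 2.07e-05). At 7 mpt the chromosome 19 gene had 4.95, 3.72, 6.24 and 4.13 CPM in controls and 2.87, 10.03, 12.1 and 5.78 CPM in *il11a*OE. The chromosome 20 gene had 0, 2.61, 0.0297 and 2.83 CPM and 2.92, 0.0185, 0 and 4.28 CPM, being all but absent in 4 of the 8 libraries and holding 40.7% to 50.5% of the summed counts in the other 4, with 2 libraries of each kind in each group. Summed, the libraries were at 4.95, 6.33, 6.27 and 6.96 CPM in controls and 5.79, 10.1, 12.1 and 10.1 CPM in *il11a*OE, where the first *il11a*OE library fell among the controls and the other 3 stood above (log2 fold change 0.63 ± 0.23, adjusted p = 0.0744). Reads that fit more than 1 place were left out of the counts, so reads common to both genes would be missing, and a transfer of reads between the genes cannot be told apart from a difference in expression here. The sum was chosen after the values were seen.

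**Figure D2:**
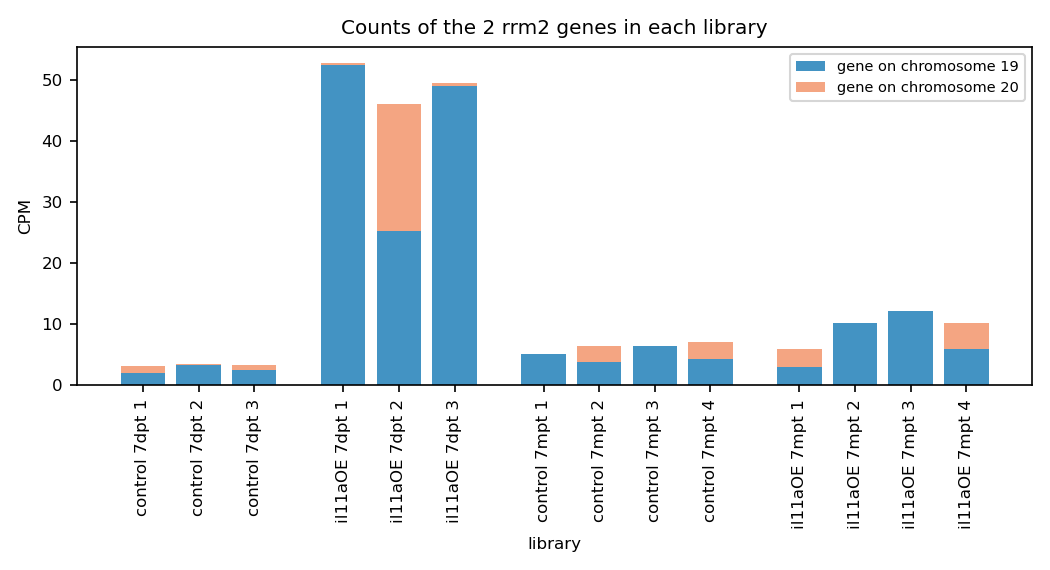
CPM of the *rrm2* gene on chromosome 19 (blue) and the *rrm2* gene on chromosome 20 (orange), stacked, in each of the 14 libraries. The chromosome 20 gene holds 45.3% of the summed counts in *il11a*OE library 2 of 7 dpt and under 1% in the other *il11a*OE libraries of 7 dpt, and the height of the whole bar is even within each group of 7 dpt.

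At 7 mpt *tk1* was the nucleotide gene that passed, with 0.291, 0.789, 0.505 and 1.16 CPM in controls and 1.12, 2.74, 2.58 and 2.29 CPM in *il11a*OE. The lowest *il11a*OE library lay just below the highest control, and the call was kept in 2 of the 8 runs that left a library out, those without control library 4 or *il11a*OE library 1 (log2 fold change 1.67 ± 0.48, adjusted p = 0.0296, up to 0.0795 with a library left out). *tyms* had 1.05, 4.07, 1.93 and 4.92 CPM in controls and 2.9, 6.28, 4.99 and 5.48 CPM in *il11a*OE, and *rrm1* 11.8, 16.5, 13.3 and 13.4 CPM and 13.5, 21.6, 17.1 and 16.6 CPM. Their groups overlapped (adjusted p = 0.303 and 0.214). The difference between the time points, which for *tk1* and *tyms* exceeded that of the other 55 genes, was -4.17 ± 0.61 for *tk1* (adjusted p = 0.00303), -3.93 ± 0.60 for *tyms* (adjusted p = 0.00398), -3.39 ± 0.60 for *rrm2* on chromosome 19 (adjusted p = 0.00745) and -2.15 ± 0.21 for *rrm1* (adjusted p = 0.000206), on the log2 scale.

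Of the 6 repair genes, 4 rose at 7 dpt and 3 of them by over 4-fold (median log2 fold change 2.64). *fanci*, which forms the ID complex of crosslink repair together with FANCD2, was at 0.55, 0.381 and 0.617 CPM in controls and 9.03, 8.42 and 7.97 CPM in *il11a*OE. *fancd2*, its partner, was at 4.71, 5.84 and 4.19 CPM and 13.8, 15.4 and 13.2 CPM. The partners both rose without overlap, by 16.3-fold and 2.88-fold (log2 fold change 4.03 ± 0.20, adjusted p = 7.08e-05, and 1.52 ± 0.15, adjusted p = 0.000603). *rad51ap1*, which stimulates strand pairing in recombination, went from 8 to 14 counts per control library, 0.204, 0.243 and 0.133 CPM, to 2.9, 2.57 and 2.46 CPM (log2 fold change 3.76 ± 0.27, adjusted p = 0.000217). Of the exon bases of *fanci* 12.8% overlap *POLG*, and of those of *exo1* 7.03% another gene, both on the opposite strand. *exo1*, the exonuclease that resects broken ends, had 3 or 4 counts in each control library, 0.0471, 0.052 and 0.0667 CPM, and 1.04, 1.84 and 1.38 CPM in *il11a*OE. All *il11a*OE libraries were above the controls, and the fold rests on those few control counts (log2 fold change 4.64 ± 0.37, adjusted p = 0.000308). *brca2*, a mediator of homologous recombination, had a log2 fold change of 0.41 ± 0.32 with overlapping groups (adjusted p = 0.362), and *blm*, the helicase that dissolves recombination intermediates, one of 0.63 ± 0.24 (adjusted p = 0.0837).

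*exo1* was also the repair gene that passed at 7 mpt, with 0.0448, 0.241, 0.149 and 0.0849 CPM in controls and 0.359, 1.06, 1.06 and 0.443 CPM in *il11a*OE. The groups did not overlap, as in 17.0% of all genes in this direction. The controls held only 4 to 22 counts, of which a fragment usually gave 2 because each mate was counted. The call was kept in 4 of the 8 runs that left a library out, being lost without control library 3 or 4 or *il11a*OE library 2 or 3 (log2 fold change 2.48 ± 0.70, adjusted p = 0.026, up to 0.0813 with a library left out). *fanci* had 0.112, 0.548, 0.327 and 0.368 CPM in controls and 0.545, 1.18, 1.36 and 0.615 CPM in *il11a*OE, *fancd2* 1.88, 2.34, 1.69 and 2.77 CPM and 1.36, 2.2, 1.22 and 2.21 CPM, and *rad51ap1* 0.425, 0.635, 0.505 and 0.623 CPM and 0.797, 0.759, 1.02 and 0.541 CPM. The groups overlapped in all 3 genes, and the fold changes of the ID partners lay on opposite sides of 0. None of the 3 passed (log2 fold change 1.45 ± 0.58 for *fanci*, -0.32 ± 0.32 for *fancd2* and 0.51 ± 0.40 for *rad51ap1*, adjusted p = 0.0971, 0.532 and 0.412). The effect was smaller at 7 mpt than at 7 dpt by 3.26 ± 0.51 for *rad51ap1* (adjusted p = 0.00426), 2.59 ± 0.65 for *fanci* (adjusted p = 0.0398) and 1.86 ± 0.35 for *fancd2* (adjusted p = 0.0103).

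Within some complexes the levels of the subunits lay closer together in *il11a*OE than in controls at 7 dpt. Per kilobase of exon, the levels of MCM2 to MCM7 in controls of 7 dpt ran from 0.09 CPM per kb (*mcm2*) to 2.42 CPM per kb (*mcm5*), a 27.1-fold range, and in *il11a*OE from 1.15 (*mcm2*) to 6.16 CPM per kb (*mcm4*), a 5.38-fold range. The GINS genes went from a 22.9-fold range in controls (*gins2* lowest, *gins1* highest) to a 2.28-fold range in *il11a*OE. The origin recognition complex went from 11.2-fold (*orc5* lowest, *orc6* highest) to 4.18-fold (*orc1* lowest, *orc4* highest). Its high end in controls rests on *orc6*, at 4.65 CPM per kb, with *orc4* next at 2.09 CPM per kb. Of the exon bases of *orc6*, 11.6% overlap other genes. The subunits with the highest control level per kb, *mcm5*, *gins1* and *orc6*, had log2 fold changes of 0.34, 0.80 and -0.34, and those with the lowest, *mcm2*, *gins2* and *orc5*, had 3.68, 5.15 and 2.34. The same control libraries enter the level and the fold change, so these values are not independent of each other. The range of replication factor C was 13.6-fold in controls and 11.6-fold in *il11a*OE, with *rfc3* lowest and *rfc5* highest in both. Its low end is uncertain, because 67.5% of the exon bases of *rfc3* overlap *KL* and reads fitting several genes were left out. The range of *pole* and *pole2* was wider in *il11a*OE, 3.47-fold against 2.22-fold in controls. At 7 mpt the ranges in controls were 4.47-fold for MCM2 to MCM7, 7.36-fold for GINS and 3.95-fold for the origin recognition complex, and in *il11a*OE 2.00-fold, 3.33-fold and 1.49-fold. The ranges of replication protein A (4.94-fold in controls and 5.14-fold in *il11a*OE) and of *pold1*, *pold2* and *pold3* (2.53-fold and 2.72-fold) were slightly wider in *il11a*OE at 7 mpt. These are descriptions within a time point, and levels were not compared across time points because reads were counted in pairs at 7 dpt and singly at 7 mpt.

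**Figure D3:**
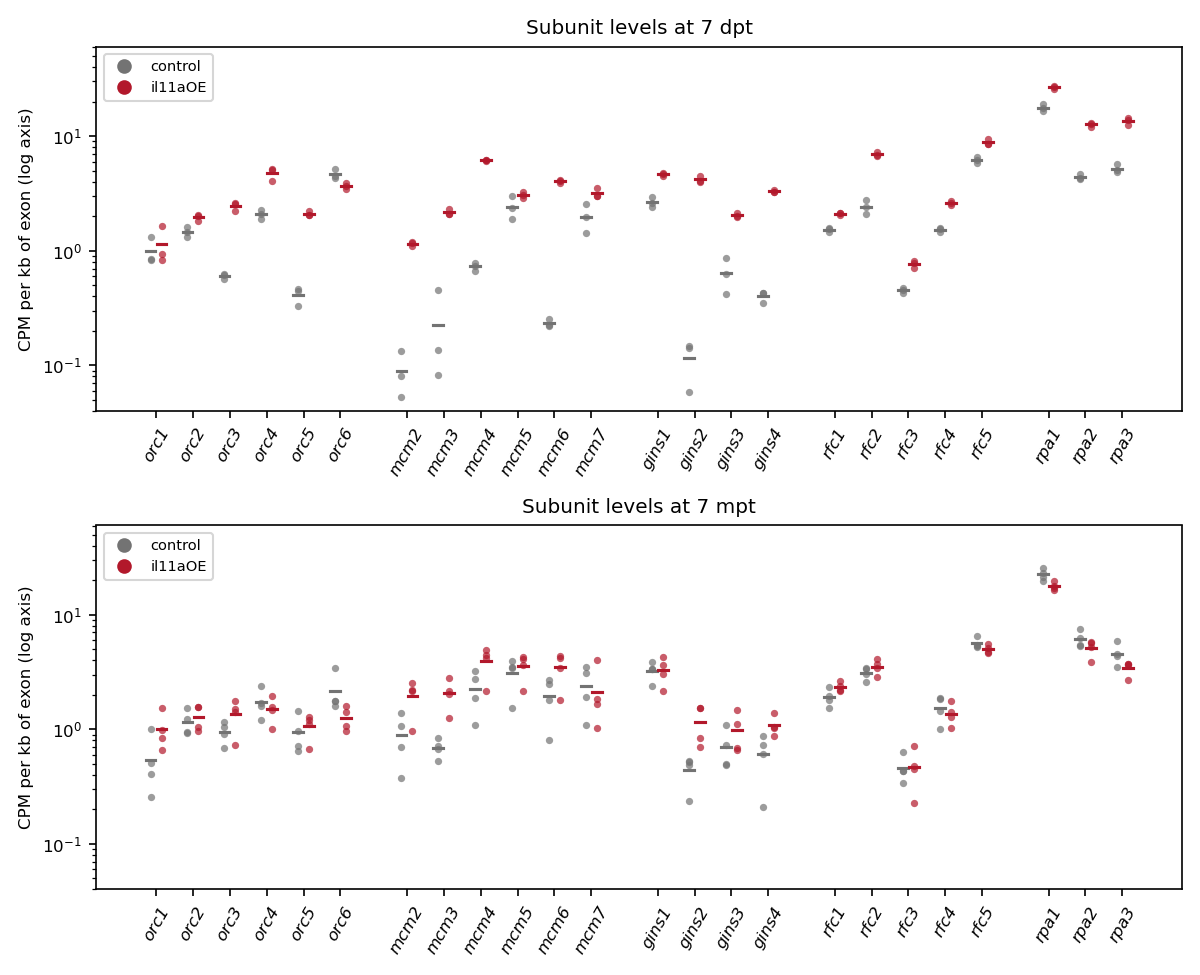
CPM per kb of exon (log axis) of the subunits of the origin recognition complex, MCM2 to MCM7, GINS, replication factor C and replication protein A, at 7 dpt (top) and 7 mpt (bottom); points are libraries and short lines group means, grey for control and red for *il11a*OE. The grey means of *mcm2*, *mcm3*, *mcm6* and *gins2* lie far below those of *mcm5* and *gins1* at 7 dpt, and the red means lie closer together.

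Across the 57 genes, the log2 fold change at 7 dpt was larger where the control level per kb was low (Pearson's r = -0.65 and Spearman's rho = -0.62 over 57 genes), and the values at 7 mpt were -0.61 and -0.51. Control libraries enter both axes and the genes share those libraries, so these are descriptions with no test.

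**Figure D4:**
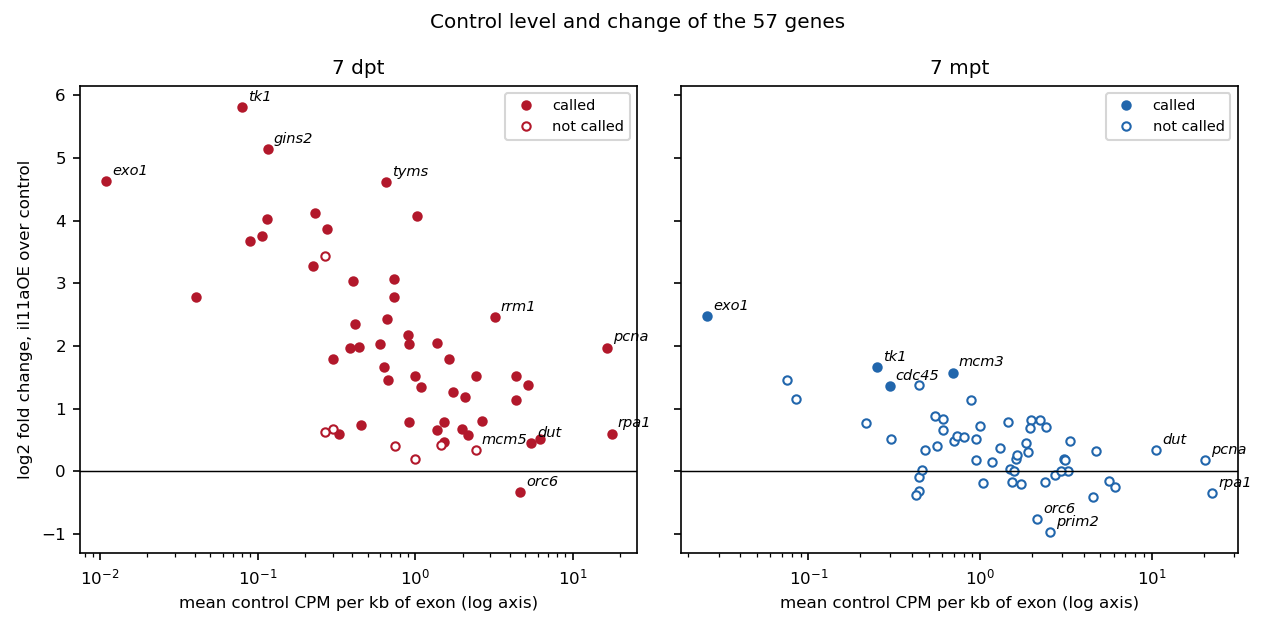
Mean control CPM per kb of exon (log axis) against the log2 fold change, *il11a*OE over control, of each of the 57 genes at 7 dpt (left) and 7 mpt (right); filled points passed edgeR's test. At 7 dpt *tk1*, *gins2* and *exo1* stand at the upper left and *orc6* below 0 at the right.

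Libraries of 7 mpt differed from each other as a set. The first control library was the lowest control in 33 of the 57 genes and the second the highest in 33, and the first *il11a*OE library was the lowest of its group in 39 genes and the highest in 0. Their median deviations from the group mean, on the log2 scale, were -0.30, 0.29 and -0.34, whereas those of the 7 dpt libraries lay between -0.01 and 0.01. The summed level of the 57 genes was 303.3, 396.0, 338.0 and 383.2 CPM in the controls of 7 mpt and 344.8, 475.6, 428.0 and 406.7 CPM in *il11a*OE, against 278.6, 267.5 and 270.0 CPM and 744.8, 743.6 and 759.3 CPM at 7 dpt. At 7 dpt the sums were thus far apart, and at 7 mpt they overlapped. The 4 genes called higher at 7 mpt became 7 without *il11a*OE library 1, 2 without control library 1 or 4, and 1 without control library 3 or *il11a*OE library 2 or 3, and *rpa1* was called lower without control library 1. The median log2 fold change at 7 mpt was 0.27 to 0.42 with a library left out.

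**Figure D5:**
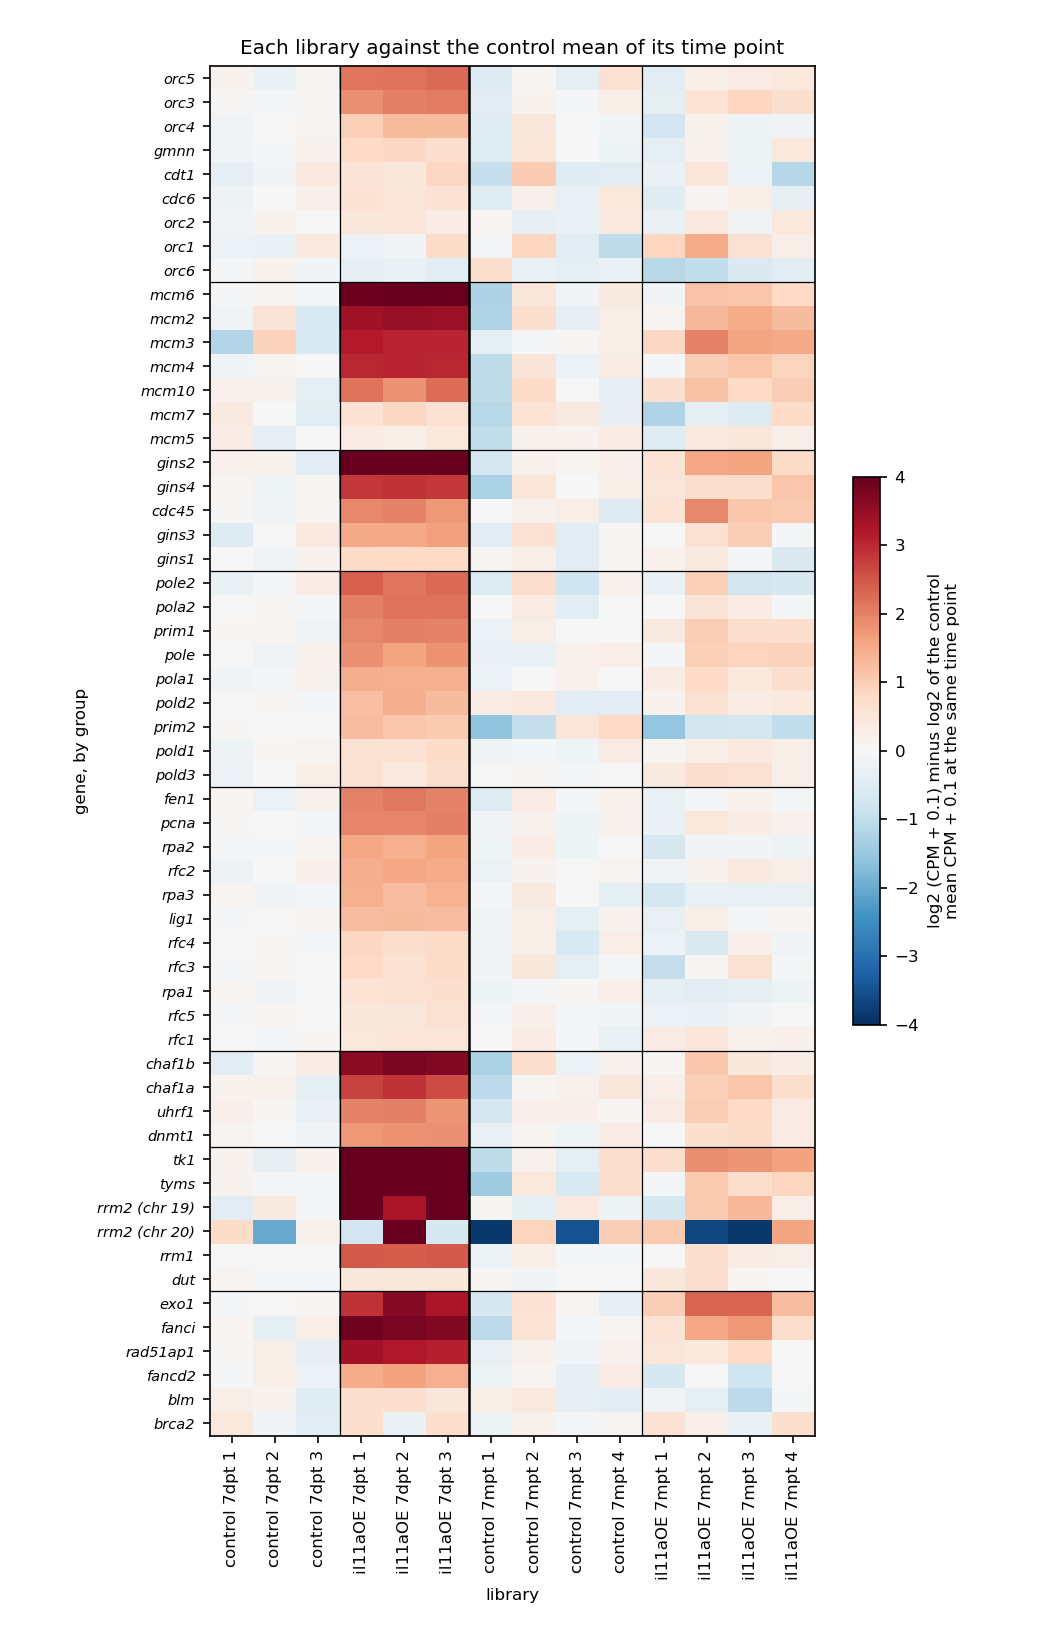
Level of each of the 57 genes (rows, by group) in each of the 14 libraries (columns), as log2 of CPM + 0.1 minus log2 of the mean control CPM + 0.1 at the same time point, red above and blue below, with colours ending at -4 and 4. The 3 *il11a*OE libraries of 7 dpt are red in nearly all rows and look alike, while the first control and first *il11a*OE libraries of 7 mpt are paler or bluer than their groups.

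The libraries of 7 mpt carry a letter, F or M, whose meaning the labels do not give, with 2 libraries of each letter in each group. With genotype in the fit, edgeR called none of the 57 genes different between the letters, against 0.0107% of all genes (1 was higher and 2 lower in M at an unadjusted p under 0.05), and none with a genotype effect that differed by letter, against 0.0% of all genes (3 at an unadjusted p under 0.05). *prim2* was nominally in both sets, and its split controls were the F and the M libraries (M minus F 1.09 on the log2 scale, adjusted p = 0.35). Other tools were not run on the letter.

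At 7 mpt markers of several cell types moved too, where 14.2% of all genes tested were called higher and 12.2% lower. Of 9 macrophage markers 7 rose (sums of 111.4 to 239.8 CPM in controls and 859.2 to 1103 CPM in *il11a*OE). Of 10 lymphoid markers 8 rose (1.84 to 3.63 CPM and 23.9 to 95.9 CPM), and all 6 fibroblast markers rose (570.3 to 999.0 CPM and 2420 to 5336 CPM). Of 6 cardiomyocyte markers 5 fell (38604 to 58260 CPM and 14554 to 23314 CPM). The remaining cardiomyocyte marker went the other way, with a log2 fold change of 2.03, and did not pass. Of 4 neutrophil markers 2 rose (4.02 to 40.3 CPM and 47.04 to 237.2 CPM), and of 5 endothelial and endocardial markers 4 fell and 1 rose (633.7 to 755.4 CPM and 449.8 to 625.8 CPM). Of 4 epicardial markers 2 rose (192.6 to 370.1 CPM and 603.7 to 817.3 CPM). Of 6 liver genes 4 were tested and *tfa* rose (summed 17.5 to 112.6 CPM in controls and 829.2 to 2482 CPM in *il11a*OE), with 4 of the list at 0 in at least 1 control library. *csf1rb* was at 0 in at least 1 control library, as were 5 lymphoid markers. None of these lists had a gene at 0 in every library of a group at 7 mpt. Of 10 germ line markers 3 were tested and 1 rose (1.52 to 2.70 CPM in controls and 4.16 to 17.07 CPM in *il11a*OE), with 4 of the list at 0 in every control library. None of the 4 erythroid or 5 erythroid progenitor markers passed, and 1 of 5 smooth muscle and mural markers rose, with overlapping sums in each list. The part of these cells in the changes of the replication genes was not tested.

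Of 35 further genes of replication control and the fork, 23 rose and 2 fell at 7 dpt (median log2 fold change 1.24), against 20.2% and 17.1% of all genes. At 7 mpt 5 rose and 2 fell, against 14.2% and 12.2% of all genes. Those with the smallest p at 7 dpt were *wdhd1*, which ties polymerase alpha to the helicase (log2 fold change 3.82 ± 0.22, adjusted p = 0.0001003), *asf1ba*, a histone chaperone (2.78 ± 0.19, adjusted p = 0.000178) and *slbp*, which binds histone mRNA (1.68 ± 0.12, adjusted p = 0.000178). Both genes that fell, named after their values were seen, fell at both times: *mcmbp*, an MCM-binding protein (-0.59 at 7 dpt and -0.64 at 7 mpt, adjusted p = 0.0019 and 0.00761), and *rrm2b*, the p53-inducible reductase subunit (-0.59 and -0.88, adjusted p = 0.00939 and 0.0189). Of 33 further genes of recombination and crosslink repair, 21 rose at 7 dpt (median 1.12), among them *rad54l*, a motor protein of strand exchange (3.33 ± 0.16, adjusted p = 6.19e-05), and *rad52* (3.45 ± 0.18, adjusted p = 8.46e-05). At 7 mpt 1 of the 32 tested passed, *rad51b*, which was lower (-1.13, adjusted p = 0.00371).

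The E2F and pocket proteins, which control transcription of many replication genes, were less uniform. Of 12 genes 7 rose and *rbl2* fell at 7 dpt (median 0.77), against 20.2% and 17.1% of all genes. At 7 mpt 3 of 11 rose, against 14.2% of all genes. *e2f8*, a repressor of the family, was at 0.676, 0.746 and 0.767 CPM in controls and 7.04, 6.68 and 5.79 CPM in *il11a*OE at 7 dpt (log2 fold change 3.15 ± 0.15, adjusted p = 6.19e-05) and rose at 7 mpt too (2.01 ± 0.47, adjusted p = 0.0106). *e2f3*, an activator, rose at both times (1.89 ± 0.17 and 0.97 ± 0.19, adjusted p = 0.000452 and 0.00483), and *e2f4* passed at 7 dpt (0.91 ± 0.11, adjusted p = 0.00127). Mitosis genes, taken for comparison, rose in 29 of 29 at 7 dpt (median 4.47) and in 17 of 29 at 7 mpt (median 1.71), where 4 of the 57 replication and repair genes rose. In the contrast of the time points 22 of the 29 mitosis genes had a smaller effect at 7 mpt, where 2.27% of all genes passed below 0. The lists were not tested against each other.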

How the data were processed

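Poly(A) RNA of heart pools was sequenced in 14 libraries. Per the methods and file headers, the authors trimmed reads with Cutadapt, aligned them to GRCz11 with HISAT2 and deposited counts per Ensembl gene from featureCounts. Strand was ignored and reads fitting several places or genes were left out. Pairs were counted at 7 dpt and each mate at 7 mpt, so levels were not compared across time points. The members and gene lists were chosen with earlier results of these data known. In each time point, edgeR 4.0.16 (R 4.3.3) was run on genes kept by filterByExpr, with TMM scaling and the robust quasi-likelihood test; the contrast of time points used all 14 libraries. DESeq2 1.42.0, limma-voom (limma 3.58.1), other filters, scalings, a replicate block and leaving out libraries were alternatives. Each standard error of a log2 fold change is its absolute value divided by the square root of edgeR's F statistic. The fit did not estimate it separately. The code was tested on simulated data. Values for every library are given for genes that passed the contrast of time points or a test at 7 mpt, and for *orc6* and *rrm2*; others shown were added after their values were seen. Symbols were taken from the reference gene names. Replicate numbers did not pair the samples. Total counts per library limit the precision of genes with few counts, as stated beside them. One gene of the recombination list is not reported here by name.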

Additional observations from a re-analysis of the deposited data

Results flagged for a closer look

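Of 114 sets of 4 libraries at 7 mpt, a gene in a group each, 6 held a library far from the other 3, where chance gives about 1 in 20. *orc6* was at 10.9 CPM in control library 1, against 5.14 to 5.66 CPM in the other controls, and *gins2* at 0.201 CPM there, against 0.416 to 0.453 CPM. *cdt1* was at 5.26 CPM in control library 2, against 1.28 to 1.81 CPM, and *rfc5* at 11.6 CPM, against 9.45 to 9.72 CPM. *pole* was at 1.49 CPM in *il11a*OE library 1, against 2.93 to 3.07 CPM, and *rpa3* at 1.74 CPM, against 2.36 to 2.38 CPM.

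In 29 genes the effect differed between the time points, with values given as the log2 fold change at 7 mpt minus that at 7 dpt. Among helicase and licensing genes these were -1.54 for *orc3*, -1.41 for *orc4*, -2.18 for *orc5*, -2.55 for *mcm2*, -2.28 for *mcm4*, -3.32 for *mcm6*, -3.79 for *gins2* and -2.23 for *gins4*. Polymerase genes had -0.92 for *pola1*, -1.99 for *pola2* and -1.32 for *prim1*. Clamp, loader and strand maturation genes had -1.81 for *pcna*, -1.35 for *rfc2*, -0.68 for *rfc5*, -0.96 for *rpa1*, -1.79 for *rpa2*, -1.80 for *rpa3*, -2.12 for *fen1* and -1.27 for *lig1*. Chromatin genes had -2.01 for *chaf1a*, -3.35 for *chaf1b* and -1.35 for *dnmt1*. Nucleotide genes had -2.15 for *rrm1*, -3.39 for *rrm2* on chromosome 19, -3.93 for *tyms* and -4.17 for *tk1*. Repair genes had -3.26 for *rad51ap1*, -2.59 for *fanci* and -1.86 for *fancd2*.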

How the results depend on the processing

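No gene reversed its direction under a called value in any alternative run. At 7 dpt 43 to 49 genes were higher over 8 alternatives and 46 to 48 with a library left out, and the median log2 fold change was 1.53 to 1.69, or 1.495 to 1.73 with a library left out. The call of *orc6* made the count of lower genes 1, and this count was 0 without a filter beyond 1 count, with the replicate block and with all 14 libraries in one fit, and 0 to 1 with a library left out. At 7 mpt the count of higher genes was 9 in DESeq2, 2 in limma-voom with quality weights, 7 with at least 10 counts in every library, 8 with the replicate block and 13 with all 14 libraries in one fit, and 1 to 7 with a library left out. The count of lower genes was 1 in DESeq2, 1 in limma-voom, 2 with all 14 libraries and 1 with the letter as covariate, and 0 to 1 with a library left out. The median was 0.31 to 0.35, or 0.27 to 0.42. The count of genes with a smaller effect at 7 mpt was 25 to 33, or 19 to 32 with a library left out, and none had a larger one. The cause of these shifts was not tested. Same-numbered libraries correlated at -0.02 to 0.16 at 7 dpt and -0.04 to 0.06 at 7 mpt, so the numbers name libraries only, and the block took all calls from 7318 to 6047 at 7 dpt, from 4928 to 4484 at 7 mpt and from 940 to 568 in the contrast of time points. Depth limits *exo1*, *gins2*, *mcm10*, *tk1* and *rad51ap1*, which had under 20 counts in every control library of 7 dpt.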
